A study of Mus musculus with 4 samples.

Results

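The interferon-inducible genes Ifitm1, Ifitm2, Ifitm3, Bst2, Ifi27 and Ifi27l2a, which encode small membrane proteins, were followed through the cells of the postnatal mouse cerebellum. They are 6 of the 32285 genes in the deposited tables and were taken by symbol. The genes were selected on unique molecular identifier (UMI) counts already seen to differ between the same libraries, so their levels and ratios are given as a description without a test. Cerebella of mice labelled Eftud2 cKO at postnatal day 10 (P10), wild type (WT) at P10, Eftud2 cKO at P14 and WT at P14 were dissociated with trypsin after the meninges had been taken off, and each group is 1 droplet-based single-cell RNA library. Eftud2 encodes a GTPase of the U5 particle of the spliceosome, and the series title places its loss in Purkinje cells, whose axons leave the cerebellar cortex. The labels give no Cre line, deleted exon, sex or number of animals.

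IFITM proteins sit in the cell surface and in endosomes and keep enveloped viruses from fusing with the cell's membranes. Bst2 encodes tetherin, which holds budding virus particles at the surface of the infected cell. Ifi27 and Ifi27l2a encode small hydrophobic proteins of the ISG12 family, whose action is less well understood. Type I interferon binds a receptor made of Ifnar1 and Ifnar2, and its signal leads to binding of transcription factors at the interferon-stimulated response element (ISRE) in promoters of target genes. In the mouse brain, Ifitm3, Bst2 and Ifi27l2a are known as marker genes of interferon-responsive microglia.

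In GENCODE vM21 (GRCm38) the 3 Ifitm genes lie within 55934 bases of chromosome 7, from Ifitm2 to Ifitm3. Ifitm2 spans chr7:140954837-140955987 on the minus strand, Ifitm1 chr7:140967221-140969825 on the plus strand and Ifitm3 chr7:141009586-141010770 on the minus strand. Ifi27 (chr12:103434211-103440239, plus strand) and Ifi27l2a (chr12:103442167-103443680, minus strand) are 1927 bases apart, and Bst2 (chr8:71534255-71537456, minus strand) stands alone. All 6 are compact genes, with 496 to 4562 bases outside exons.

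The promoters of the 4 members with an entry in the RefSeq table (GRCm38.p6) are shown because the factors of the interferon pathway bind there, and the 4 windows differ in the ISRE letters they hold. Each window runs 5′ to 3′ on the gene's strand, from 250 bases before the start site to 50 bases after it. Capitals mark the core letters of an ISRE, searched on both strands as GAAANNGAAA.
Ifitm2: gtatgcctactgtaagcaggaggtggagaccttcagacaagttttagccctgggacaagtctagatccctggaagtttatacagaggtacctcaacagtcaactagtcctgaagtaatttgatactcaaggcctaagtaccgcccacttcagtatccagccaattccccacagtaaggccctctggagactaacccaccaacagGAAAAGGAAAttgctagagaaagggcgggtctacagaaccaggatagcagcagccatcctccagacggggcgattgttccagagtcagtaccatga
Ifitm1: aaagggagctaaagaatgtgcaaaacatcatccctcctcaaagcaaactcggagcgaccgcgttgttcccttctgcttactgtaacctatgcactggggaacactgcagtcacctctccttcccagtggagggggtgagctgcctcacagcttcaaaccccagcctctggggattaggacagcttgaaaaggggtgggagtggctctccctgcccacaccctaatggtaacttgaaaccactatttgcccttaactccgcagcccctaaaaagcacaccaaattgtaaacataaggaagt
Ifitm3: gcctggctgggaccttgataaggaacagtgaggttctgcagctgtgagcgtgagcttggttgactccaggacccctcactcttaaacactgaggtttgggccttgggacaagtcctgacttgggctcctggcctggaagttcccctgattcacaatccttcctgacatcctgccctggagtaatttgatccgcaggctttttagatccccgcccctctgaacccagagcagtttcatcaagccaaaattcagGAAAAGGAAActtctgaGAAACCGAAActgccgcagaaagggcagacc
Bst2: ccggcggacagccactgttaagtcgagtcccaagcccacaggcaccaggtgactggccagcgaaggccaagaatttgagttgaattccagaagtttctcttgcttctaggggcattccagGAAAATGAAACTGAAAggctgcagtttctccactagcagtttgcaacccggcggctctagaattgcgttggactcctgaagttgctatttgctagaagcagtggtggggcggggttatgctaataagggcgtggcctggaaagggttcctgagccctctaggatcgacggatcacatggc
The windows are chr7:140955912-140956211 (minus) for Ifitm2, chr7:140967826-140968125 (plus) for Ifitm1, chr7:141010695-141010994 (minus) for Ifitm3 and chr8:71537423-71537722 (minus) for Bst2. Ifitm2 held 1 match, at bases 205 to 214 of its window, before the start site. Ifitm3 held 2 matches after the start site, at bases 253 to 262 and 270 to 279. In Bst2 there were 2 overlapping matches at bases 121 to 130 and 127 to 136, before the start site, and the Ifitm1 window held none. That window lies inside the GENCODE gene, which starts at base 140967221. Sequence before the GENCODE start of Ifitm1 was not searched. Across the table, 3.44% of 32851 such windows hold these letters. By gene, counting any window, they occur in 3.99% of 27025 genes. Of the 19 other interferon-stimulated genes of the companion list that have a window, 9 hold them. The letters TTCNNNGAA of a gamma-activated site occurred in the windows of Ifitm3 and Bst2, where they overlap an ISRE match by some bases, and in 8.30% of all windows. A match is a run of letters and was not tested as a binding site.

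The 4 libraries held 6719 to 16691 barcodes and 91091692 to 158017834 UMIs, and 6308 to 15395 cells per library passed the filters. Cells were placed in 15 classes by counts of marker genes and are called by the cell type whose markers gated them, and 54 of the 60 class and library pairs had at least 20 cells. Each of the 54 had 1 or more markers of its own type among the 10 genes with the highest fold over the other cells, and the cKO fibroblasts of both ages also had 1 mural marker there. The cells were gated by these same markers, so this is no independent check of the class names. Eftud2 stood at 55.7 UMIs per 1000000 (CPM) in P10 cKO and 52.2 CPM in P10 WT, and at 45.0 CPM in P14 cKO and 47.3 CPM in P14 WT. At most 5 cells in a library had UMIs of 5 or more Purkinje markers, so the cells named in the series title cannot be described here. The P10 cKO library differed from the other 3 in Xist, at 0.532 CPM against 896 to 1226 CPM, and in Ddx3y and Uty, at 59.7 and 106 CPM against at most 2.40 CPM. The labels state neither sex nor pooling. Any pair of libraries shared 7 to 76 cell barcodes.

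**Figure D1:**
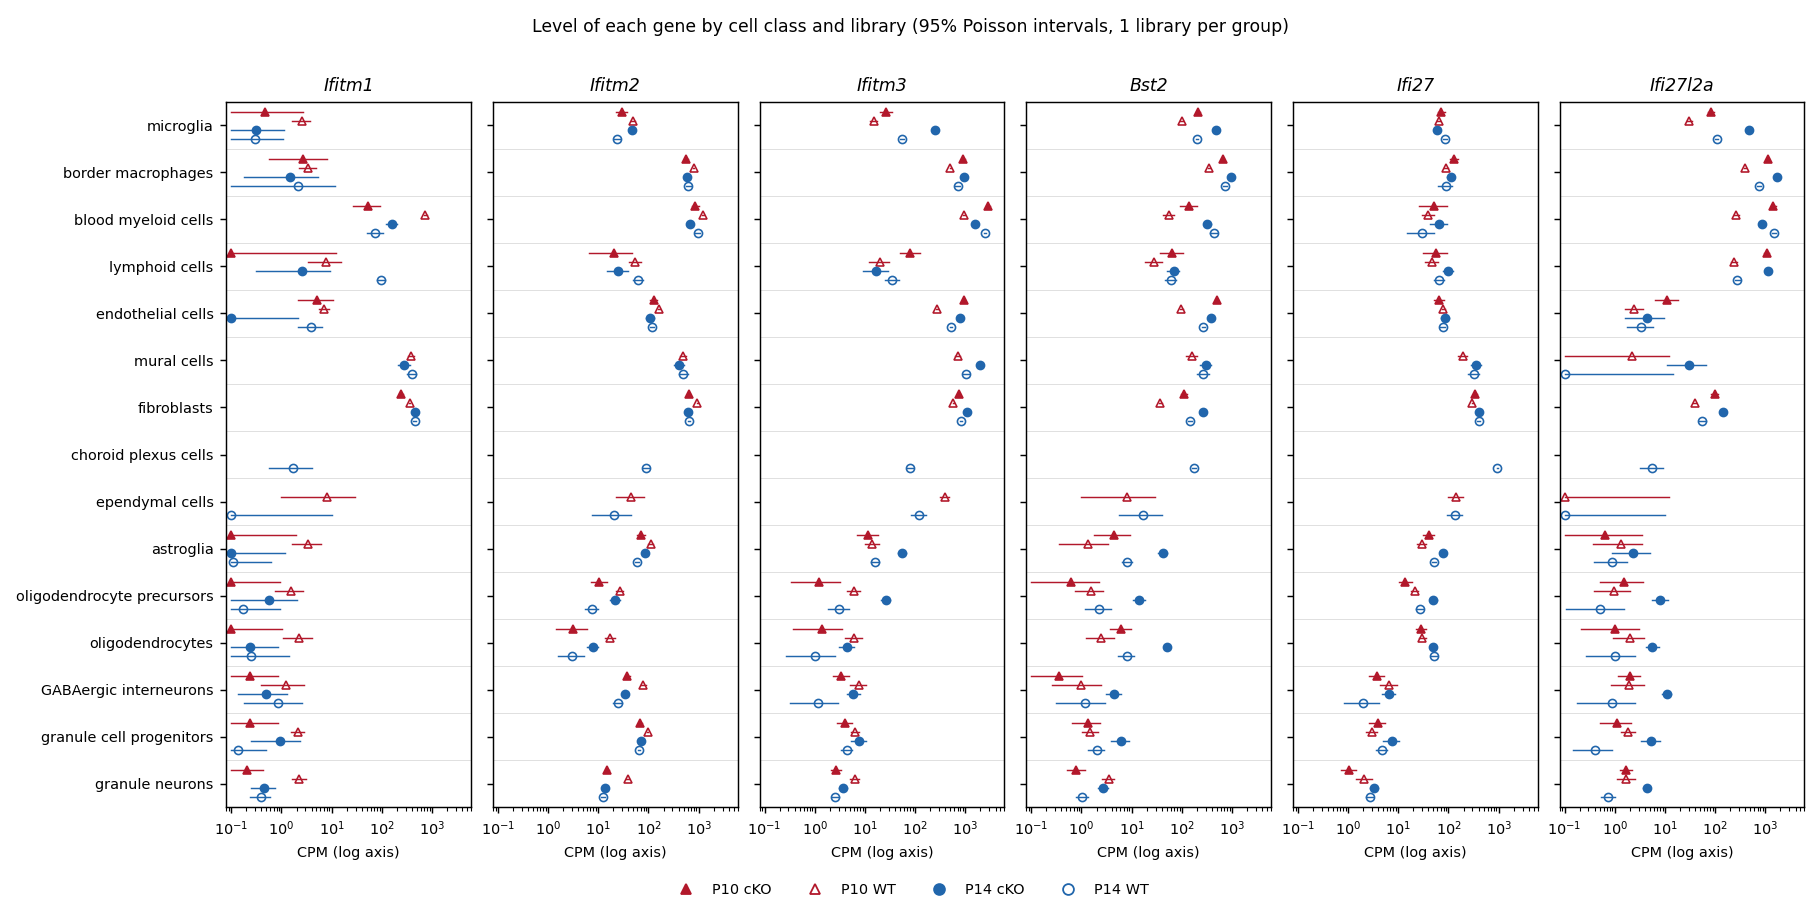
Level of each gene in CPM (log axis, values under 0.1 drawn at 0.1) by cell class. Filled symbols are cKO and open symbols WT, triangles P10 and circles P14, and bars are 95% Poisson intervals. Ifitm1 is high in fibroblasts and mural cells and, in P10 WT, highest in blood myeloid cells. Ifi27l2a is highest in border macrophages, blood myeloid cells and lymphoid cells.

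A level is the share of a class's UMIs that belong to the gene, in CPM, and intervals are exact 95% Poisson intervals that hold counting error only. CPM are not divided by gene length, so a level is compared across classes for 1 gene at a time. Ifitm1 had the narrowest range of cells. In P14 cKO it stood at 458 CPM in fibroblasts, 278 CPM in mural cells and 157 CPM in blood myeloid cells, with no overlap of intervals, and at 2.59 CPM or less in every other class with enough cells. The order differed in P10 WT, with 730.1 CPM in blood myeloid cells, 381 CPM in mural cells and 359 CPM in fibroblasts. Fibroblasts alone gave 76.5% of all Ifitm1 UMIs in P10 cKO and 60.9% in P10 WT, and 76.2% in P14 cKO and 67.8% in P14 WT.

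Ifitm2 and Ifitm3 were spread wider. For Ifitm2 the highest classes in P14 cKO were blood myeloid cells at 674 CPM, fibroblasts at 615 CPM and border macrophages at 594 CPM, whose intervals overlapped. In granule cell progenitors Ifitm2 stood at 71.6 CPM in P14 cKO and 64.9 CPM in P14 WT. Ifitm3 in P14 cKO ran in the order mural cells (1963 CPM), blood myeloid cells (1555 CPM), fibroblasts (1089 CPM), border macrophages (927 CPM), endothelial cells (793 CPM), microglia (248 CPM) and astroglia (55.1 CPM), and no 2 neighbours overlapped. In P14 WT the first place went to blood myeloid cells at 2462 CPM, and microglia at 55.3 CPM came below ependymal cells and choroid plexus cells.

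Bst2 was highest in border macrophages in both P14 libraries, at 976 CPM in cKO and 727 CPM in WT. Microglia were second in P14 cKO at 470.1 CPM. In P14 WT they stood at 201 CPM, below blood myeloid cells (428 CPM), mural cells and endothelial cells. Ifi27 had its highest level in choroid plexus cells, which reached 20 cells only in P14 WT, at 945 CPM there. Next came fibroblasts (408 CPM in P14 cKO, 397 CPM in P14 WT) and mural cells (352 CPM in P14 cKO, 322 CPM in P14 WT), with overlapping intervals. Ifi27l2a belonged to leukocytes. In P14 cKO it ran from border macrophages (1682 CPM) through lymphoid cells (1122 CPM), blood myeloid cells (853 CPM) and microglia (467 CPM) to fibroblasts (140.5 CPM), with no overlap, while endothelial cells had 4.36 CPM.

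At P14 the question was how these genes stand in cKO cells against WT cells of the same class. A pair of gene and class is called higher or lower here when the CPM differ at least 2-fold and both libraries together hold at least 20 UMIs of the gene and 20 cells each. Of 67 such pairs, 27 were higher and 3 lower in cKO, against 4.34% and 2.95% of all gene and class pairs, and the median log2 ratio was 0.59. By gene, the higher calls were 9 of 10 classes for Ifi27l2a, 7 of 13 for Bst2, 5 of 13 for Ifitm3, 3 of 13 for Ifitm2, 2 of 13 for Ifi27 and 1 of 5 for Ifitm1. Bst2 had a ratio above 1 in 12 of 13 classes, blood myeloid cells being the exception, and Ifi27l2a in 9 of 10 with the same exception. Several of the higher calls, in neural classes, rest on few WT UMIs, which are given with those classes below.

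**Figure D2:**
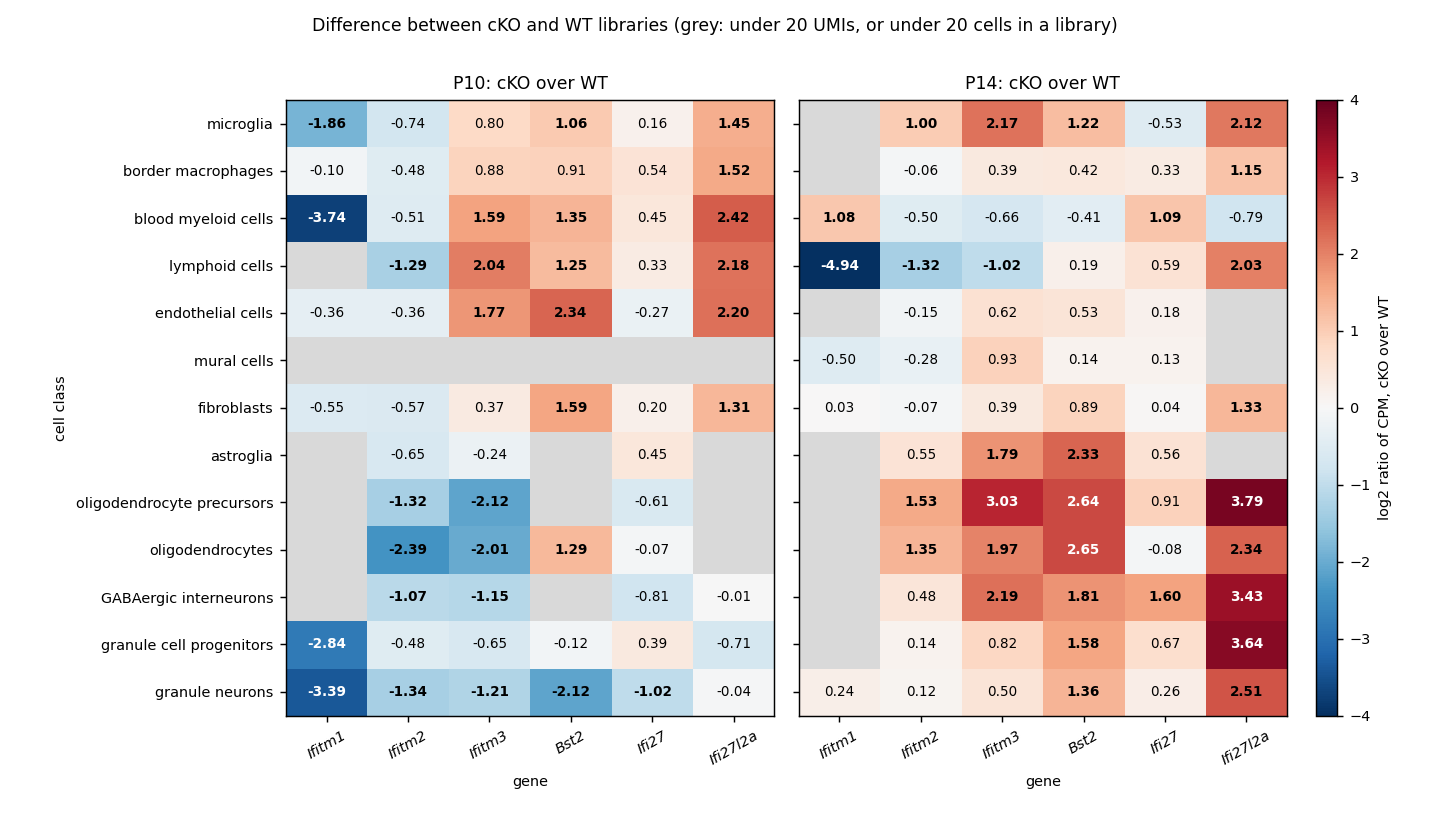
Log2 ratio of CPM, cKO over WT, for each gene (columns) and cell class (rows) at P10 (left) and P14 (right), with values of 2-fold or more in bold and pairs with too few UMIs or cells in grey. At P14 the Ifi27l2a column is red in 9 of its 10 readable classes, all but blood myeloid cells, whereas at P10 the rows of neural cells hold mostly ratios below 1.

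Microglia, the macrophages of the brain tissue, had 4 of 5 members called higher at P14, against 3.46% of all genes tested in that class. There were 353 cKO and 666 WT microglia. Ifitm3 stood at 248 CPM in cKO microglia and 55.3 CPM in WT microglia, a log2 ratio of 2.17 (95% counting interval 2.0013 to 2.34). Ifi27l2a stood at 467 CPM in cKO and 108 CPM in WT, a log2 ratio of 2.12 (1.9996 to 2.24). These are differences of 4.49-fold and 4.34-fold, and their intervals lie well away from 0. Bst2 stood at 470.1 CPM in cKO and 201 CPM in WT, a log2 ratio of 1.22 (1.13 to 1.32). Ifitm2 stood at 47.5 CPM in cKO and 23.7 CPM in WT, a log2 ratio of 1.00 (0.72 to 1.29) that lies at the 2-fold line and was 0.90 with 1 more marker required. Ifi27 did not share this: it stood at 59.2 CPM in cKO and 85.3 CPM in WT, a log2 ratio of -0.53 (-0.72 to -0.34). Ifitm1 was at 0.318 CPM in cKO and 0.304 CPM in WT, 2 UMIs in each library. Among Ifitm transcripts the balance also differed, with 5.23 Ifitm3 UMIs for each Ifitm2 UMI in cKO microglia and 2.33 in WT microglia.

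Microglia of the cKO library were sequenced deeper, with a median of 17269 UMIs per cell against 9104 UMIs in WT, so shares of cells were taken after thinning to 2000 UMIs per cell. Cells with fewer UMIs were left out, 9 of 353 in cKO and 28 of 666 in WT at P14. Bst2 then had a UMI in 52.9% of cKO and 29.3% of WT microglia at P14 (unthinned 94.3% and 67.6%). Ifi27l2a had one in 38.7% of cKO and 13.6% of WT cells, and Ifitm3 in 22.1% of cKO and 7.84% of WT cells. In granule neurons the share with a Bst2 UMI at the same depth was also higher in cKO, at 0.779% of cKO and 0.180% of WT cells. The microglial difference was thus spread over many cells and kept its direction at equal depth.

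**Figure D3:**
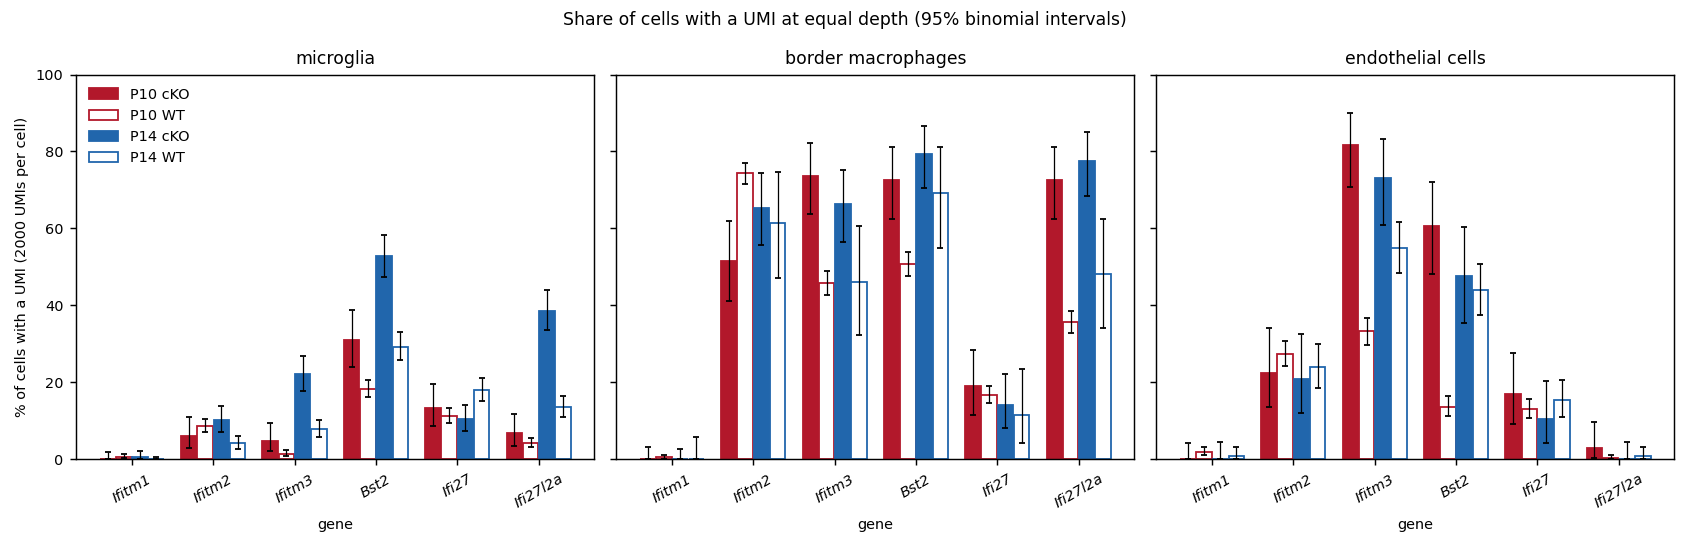
Share of cells with a UMI of each gene, in percent, after thinning to 2000 UMIs per cell, in microglia, border macrophages and endothelial cells. Bars are libraries (filled cKO, open WT) with exact 95% binomial intervals. At P14 the cKO bar of Bst2, Ifitm3 and Ifi27l2a stands above the WT bar in microglia with intervals apart.

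Microglia were then grouped by the UMIs of 23 other interferon-stimulated genes in the thinned cell. At P14, 63.1% of cKO and 34.5% of WT microglia had 2 or more such UMIs. Ifitm3 in these cells stood at 274 CPM in cKO and 145 CPM in WT, and in cells with none of those UMIs at 98.0 CPM in cKO and 31.9 CPM in WT. Ifi27l2a stood at 576 CPM in cKO and 166 CPM in WT among the cells with 2 or more, and at 353 CPM in cKO and 91.5 CPM in WT among the cells with none. Cells with 1 such UMI did not lie between for Ifitm3, at 92.1 CPM in cKO and 19.1 CPM in WT. The same held for Ifi27l2a in WT, at 71.0 CPM. In cKO Ifi27l2a stood at 362 CPM in these cells, near its level in cells with none. Both genes were higher in cKO within all 3 groups of cells, and highest in the group with 2 or more. Bst2 stood at 581 CPM in cKO and 314 CPM in WT in cells with 2 or more, at 322 CPM in cKO and 180.3 CPM in WT with 1, and at 412 CPM in cKO and 149 CPM in WT with none. Ifi27 in P14 cKO was 57.6 CPM in cells with 2 or more and 58.8 CPM in cells with none.

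**Figure D4:**
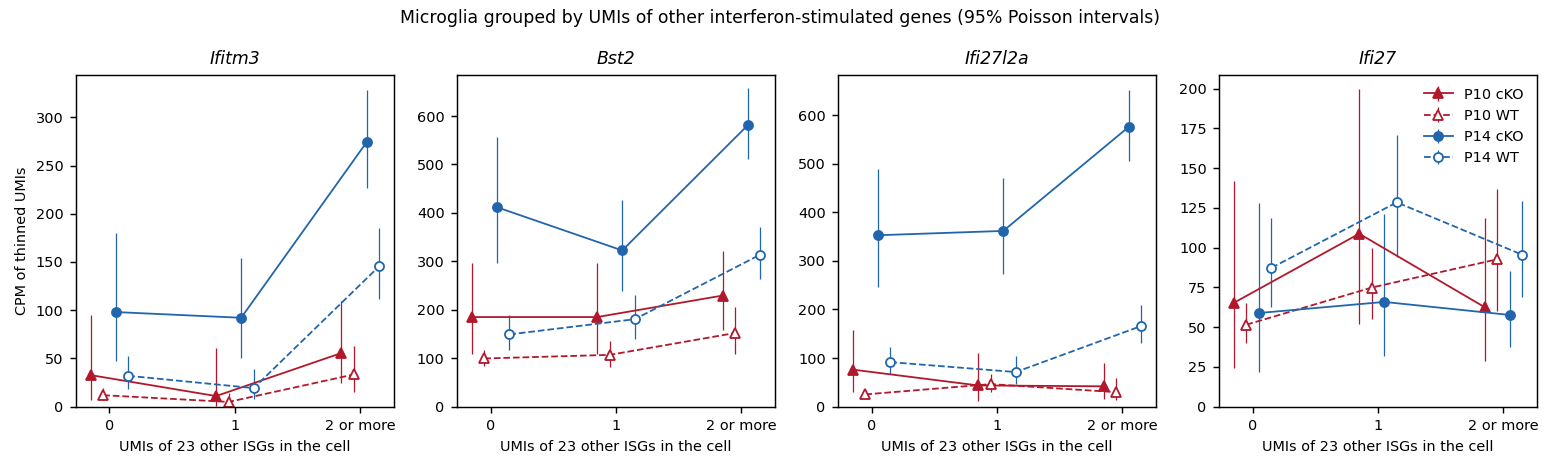
CPM of 4 genes in microglia thinned to 2000 UMIs, grouped by the UMIs of 23 other interferon-stimulated genes (ISGs) in the cell. Filled symbols and solid lines are cKO, open symbols and dashed lines WT, and bars are 95% Poisson intervals. Ifitm3, Bst2 and Ifi27l2a are highest in P14 cKO cells with 2 or more such UMIs, and Ifi27 in P14 cKO lies between 57.6 and 65.8 CPM in the 3 groups.

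Border macrophages, which line the meninges, vessels and choroid plexus, had 1 of 5 members called higher at P14 (background 5.92%). This was Ifi27l2a, at 1682 CPM in cKO and 755 CPM in WT, a log2 ratio of 1.15 (0.99 to 1.32). The cells were 121 in cKO and 52 in WT. Bst2 and Ifitm3 were higher by less than 2-fold: Bst2 stood at 976 CPM in cKO and 727 CPM in WT, and Ifitm3 at 927 CPM in cKO and 708 CPM in WT. Ifitm2 stood at 594 CPM in cKO and 620.5 CPM in WT, with a ratio whose interval holds 0. In WT border macrophages Ifitm2, Ifitm3, Bst2 and Ifi27l2a stood at 620.5 to 755 CPM, against 23.7 to 201 CPM in WT microglia.

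Blood myeloid cells were 40 in P14 cKO and 52 in P14 WT. They had 2 of 6 members called higher (background 5.99%): Ifitm1 at 157 CPM in cKO and 73.9 CPM in WT, and Ifi27 at 64.6 CPM in cKO and 29.5 CPM in WT. The genes that were higher in microglia went the other way here by less than 2-fold, with log2 ratios of -0.66 for Ifitm3, -0.41 for Bst2 and -0.79 for Ifi27l2a. This class mixes cell types that differ in these genes, so it was divided by Retnlg, a neutrophil gene, and Ccr2, a monocyte gene, a division made after the levels had been seen. Cells with Retnlg and no Ccr2 numbered 12 in cKO and 22 in WT, and those with Ccr2 and no Retnlg 15 in cKO and 24 in WT. Ifitm1 belonged to the Retnlg cells, at 524 CPM in cKO and 193 CPM in WT, and stood at 4.18 CPM in cKO and 4.51 CPM in WT in the Ccr2 cells. Ifitm3 stood at 1833 CPM in cKO and 767 CPM in WT in Retnlg cells, and at 1601 CPM in cKO and 3326 CPM in WT in Ccr2 cells. Ifi27l2a stood at 764 CPM in cKO and 767 CPM in WT in Retnlg cells, and at 928 CPM in cKO and 1941 CPM in WT in Ccr2 cells. The direction of Ifitm3 thus differed between these 2 small groups of cells. Without the top 1% of cells of each gene the log2 ratio of Ifitm1 in the whole class was 0.0042 and that of Ifi27 0.90, so both calls ended.

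**Figure D5:**
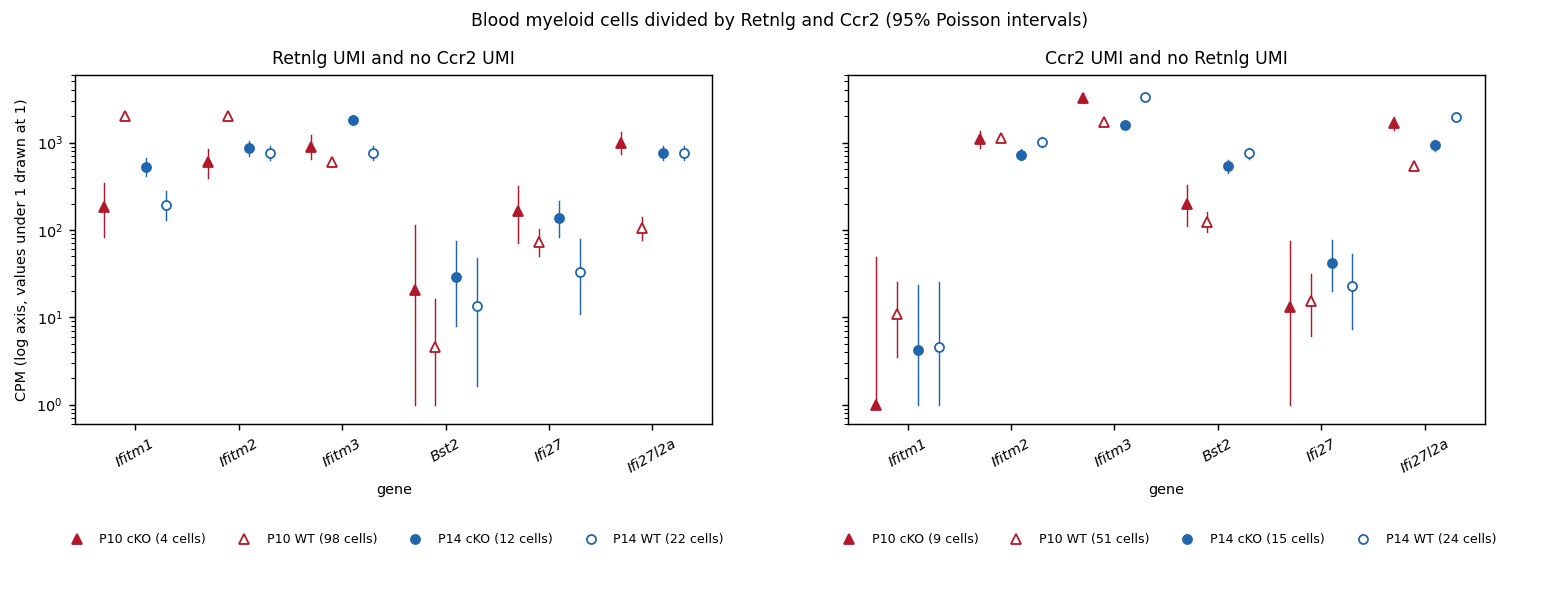
CPM (log axis, values under 1 drawn at 1) of each gene in blood myeloid cells with a Retnlg UMI and no Ccr2 UMI (left) and with a Ccr2 UMI and no Retnlg UMI (right). Filled symbols are cKO and open symbols WT, with 95% Poisson intervals and cell numbers in the legend. Ifitm1 lies between 184 and 1986 CPM in the left panel and at 10.8 CPM or below in the right panel.

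Lymphoid cells, 75 in cKO and 136 in WT at P14, had 1 member called higher (background 5.21%) and 3 called lower (background 5.19%). Ifi27l2a was the higher one, at 1122 CPM in cKO and 275 CPM in WT, a log2 ratio of 2.03 (1.84 to 2.22). In cells with B cell markers alone it stood at 1158 CPM in cKO and 316 CPM in WT. In cells with T or NK cell markers alone it stood at 1888 CPM in cKO, where there were 8 such cells, and 234 CPM in WT, where there were 63. The difference thus ran the same way in both kinds of lymphocyte. The lower calls were Ifitm1, Ifitm2 and Ifitm3 and rested on few cells: of 113 Ifitm1 UMIs in WT, 70 came from 1 cell, against 2 UMIs in cKO. Ifitm2 had 37 of its 72 UMIs in 1 WT cell and Ifitm3 26 of 40. Without the top 1% of cells Ifitm2 came to a log2 ratio of -0.06, and the 2 others no longer had enough UMIs.

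Endothelial cells line the vessels and had none of 4 members called higher at P14 (background 1.55%). Ifitm3 stood at 793 CPM in 68 cKO cells and 517 CPM in 243 WT cells, a log2 ratio of 0.62 (0.51 to 0.72). Bst2 stood at 385 CPM in cKO and 267 CPM in WT, a log2 ratio of 0.53 (0.37 to 0.68). Both were higher by less than 2-fold with intervals above 0. At 2000 UMIs per cell, 73.1% of cKO and 55.0% of WT endothelial cells had an Ifitm3 UMI. Ifitm2 stood at 108 CPM in cKO and 120 CPM in WT, within counting error.

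Mural cells, the pericytes and smooth muscle of the vessel wall, were 20 in cKO and 33 in WT and had none of 5 members called (4.06% of all genes were higher). Ifitm3 came nearest, at 1963 CPM in cKO and 1029 CPM in WT, a log2 ratio of 0.93 (0.69 to 1.18), with 82 of its 396 cKO UMIs in 1 cell. Fibroblasts, 108 in cKO and 253 in WT, had 1 of 6 members called higher (background 1.92%). This was Ifi27l2a, at 140.5 CPM in cKO and 56.0 CPM in WT, a log2 ratio of 1.33 (1.05 to 1.60). Bst2 followed at 264.5 CPM in cKO and 143 CPM in WT, a log2 ratio of 0.89 (0.71 to 1.07), with 100 of its 561 cKO UMIs in 1 cell. Ifitm1, Ifitm2 and Ifi27 differed by at most 0.07 on the log2 scale in fibroblasts, the class where each is high. Choroid plexus cells were 13 in cKO and 399 in WT, too few for a ratio. Over all kept cells Ifi27 stood at 38.0 CPM in P14 cKO and 52.6 CPM in P14 WT, where choroid plexus cells gave 3.00% of the cKO and 35.6% of the WT UMIs.

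In neural cells Bst2, Ifitm3 and Ifi27l2a stood at 55.1 CPM or less in P14 cKO, below their levels in cKO microglia. Astroglia, 164 in cKO and 741 in WT, had 2 of 4 members called higher (background 2.75%). Bst2 stood at 41.3 CPM in cKO and 8.23 CPM in WT, a log2 ratio of 2.33 (1.89 to 2.78), and Ifitm3 at 55.1 CPM in cKO and 15.9 CPM in WT, a log2 ratio of 1.79 (1.45 to 2.14). Those Bst2 UMIs lay in 31 of the cKO and 43 of the WT cells. The summed CPM of 10 microglia markers in astroglia was 65.3 in cKO and 43.0 in WT, and the part of microglial RNA in these values was not tested. At P14, 8 to 10 of the 10 markers were detected in each neural class, and Tmem119 and P2ry13 were at 0 in cKO astroglia. For each 100 microglia marker UMIs there were 63.3 Bst2 UMIs in cKO astroglia and 4.67 in cKO microglia, and 19.1 in WT astroglia and 1.82 in WT microglia. In the other non-neural classes this ratio ran from 63.1 (lymphoid cells) to 631 (endothelial cells) in cKO. In WT it ran from 16.7 (ependymal cells) to 534 (endothelial cells). The part of RNA from those classes in the astroglial values was not tested either.

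Oligodendrocyte precursors, 153 in cKO and 380 in WT, had 4 of 5 members called higher (background 2.31%). Ifitm3 stood at 25.8 CPM in cKO and 3.08 CPM in WT, a log2 ratio of 3.03 (2.33 to 3.88), Bst2 at 14.3 CPM in cKO and 2.23 CPM in WT, and Ifi27l2a at 8.14 CPM in cKO and 0.514 CPM in WT. The cKO UMIs lay in 17 cells for Ifitm3, 17 for Bst2 and 14 for Ifi27l2a, of which 15 of 29 Ifi27l2a UMIs were in 1 cell. WT precursors held 18 UMIs of Ifitm3, 13 of Bst2 and 3 of Ifi27l2a. Ifitm2 was called higher as well, at 21.3 CPM in cKO and 7.37 CPM in WT, and came to a log2 ratio of 0.59 with 1 more marker required. Microglia marker CPM in these precursors was 47.7 in cKO and 29.5 in WT.

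Oligodendrocytes, the myelinating cells, had 4 of 5 members called higher, where the background was 8.73%. Bst2 stood at 50.7 CPM in cKO and 7.97 CPM in WT, a log2 ratio of 2.65 (2.15 to 3.24), with 432 UMIs in 86 cKO cells. Ifi27 stood at 48.9 CPM in cKO and 51.5 CPM in WT, within counting error. Ifi27l2a, Ifitm3 and Ifitm2 were called at 4.34 to 7.86 CPM in cKO and 0.996 to 2.99 CPM in WT. The WT values rest on 4 UMIs each of Ifi27l2a and Ifitm3 and 12 of Ifitm2. The cKO class had 373 cells at a median of 5979 UMIs and the WT class 134 cells at 31264 UMIs, so the groups differed in depth. Thinning to 2000 UMIs left out 152 cKO and 15 WT cells with fewer UMIs, and 8.60% of the other 221 cKO and 0.840% of the other 119 WT oligodendrocytes had a Bst2 UMI. Microglia marker CPM was 73.4 in cKO and 53.0 in WT, with 69.1 Bst2 UMIs per 100 marker UMIs in cKO and 15.0 in WT. The part of RNA from microglia and other cells in the oligodendrocyte values was not tested.

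GABAergic interneurons had 4 of 5 members called higher at P14 (background 3.77%), all at 10.9 CPM or less in cKO. WT interneurons held 4 UMIs each of Ifitm3 and Bst2 and 7 of Ifi27. Ifi27l2a stood at 10.9 CPM in cKO and 0.867 CPM in WT, but 54 of its 87 cKO UMIs came from 1 cell, against 3 UMIs in all WT cells. Granule cell progenitors had 2 of 5 called higher (background 3.3%), Ifi27l2a at 5.33 CPM in cKO and 0.404 CPM in WT and Bst2 at 6.02 CPM in cKO and 2.02 CPM in WT. Their Ifi27l2a UMIs were 23 in cKO and 6 in WT. Granule neurons had the same 2 of 6 called higher (background 7.59%), Ifi27l2a at 4.31 CPM in cKO and 0.750 CPM in WT and Bst2 at 2.70 CPM in cKO and 1.05 CPM in WT. Microglia marker CPM in granule neurons was 34.2 in cKO and 22.2 in WT, with 7.89 Bst2 UMIs per 100 marker UMIs in cKO and 4.72 in WT. Over all kept P14 cells Bst2 stood at 90.6 CPM in cKO and 35.3 CPM in WT, and Ifi27l2a at 97.8 CPM in cKO and 18.2 CPM in WT. The part of RNA from microglia and other cells in the granule neuron values was not tested. With 1 more marker required of every cell, the log2 ratio of Bst2 in progenitors was 0.70. Ifitm2 stood at 13.5 CPM in cKO and 12.4 CPM in WT granule neurons, a log2 ratio of 0.12 (-0.05 to 0.30).

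At P10 the same comparison gave 15 higher and 15 lower calls among 61 pairs, against 21.6% and 5.95% of all gene and class pairs. The matrices of the 2 P10 libraries were written by different Cell Ranger versions, per the file headers, and their ratios moved with the length of a gene outside its exons. In microglia the median log2 ratio was -0.39 for 4291 genes with up to 10000 bases outside exons and 0.44 for 8202 longer genes, whereas at P14 the medians were -0.05 and -0.13. In all 12 classes at P10 the median of compact genes was below 0, from -0.59 in GABAergic interneurons to -0.24 in endothelial cells. All 6 members are compact. The P10 backgrounds given here are over genes of all lengths. Of compact genes alone, 4.47% were at least 2-fold higher and 9.23% lower in microglia, and 4.97% higher and 6.50% lower in endothelial cells. Compact genes at least 2-fold lower were 13.2% in granule neurons, 14.9% in GABAergic interneurons, 11.6% in oligodendrocytes and 8.43% in oligodendrocyte precursors. In blood myeloid cells 7.74% of them were higher and 26.1% lower. The part of gene length, and of the difference in Xist and Ddx3y, in the ratios that follow was not tested.

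In P10 microglia, 166 in cKO and 1175 in WT, 2 of 6 members were called higher (background 21.4%) and 1 lower (background 5%). Bst2 stood at 208 CPM in cKO and 100.3 CPM in WT, a log2 ratio of 1.06 (0.89 to 1.22), and Ifi27l2a at 82.4 CPM in cKO and 30.3 CPM in WT, a log2 ratio of 1.45 (1.17 to 1.72). After thinning to 2000 UMIs per cell these log2 ratios were 0.93 and 0.75, under 2-fold. Ifitm3 was at 26.0 CPM in cKO and 15.0 CPM in WT, short of 2-fold. Ifitm1 was the lower one, at 0.474 CPM in cKO and 2.53 CPM in WT, which is 1 UMI against 25. In border macrophages Ifi27l2a was the 1 of 6 called higher (background 21.4%), at 1123 CPM in cKO and 391 CPM in WT, while Bst2, at its highest class level in either P10 library, stood under 2-fold apart at 656 CPM in cKO and 349 CPM in WT.

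Of the 9 classes with a readable Bst2 ratio at P10, endothelial cells had the highest, whereas at P14 their log2 ratio was 0.53. At P10, 3 of 6 members were called higher in these cells (background 20.2%). Bst2 stood at 497 CPM in 74 cKO cells and 98.1 CPM in 741 WT cells, a log2 ratio of 2.34 (2.20 to 2.48), and Ifitm3 at 945 CPM in cKO and 276 CPM in WT, a log2 ratio of 1.77 (1.68 to 1.87). At 2000 UMIs per cell, 60.6% of cKO and 13.6% of WT endothelial cells had a Bst2 UMI, and 81.7% of cKO and 33.2% of WT cells an Ifitm3 UMI. The most UMIs in 1 cKO cell were 79 of 666 for Bst2 and 145 of 1265 for Ifitm3. Ifi27l2a was called on 15 cKO and 26 WT UMIs, with 9 of the 15 in 1 cell. Fibroblasts had 2 of 6 called higher (background 20.5%), Bst2 at 113 CPM in cKO and 37.5 CPM in WT and Ifi27l2a at 97.4 CPM in cKO and 39.2 CPM in WT.

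Blood myeloid cells at P10, 23 in cKO and 217 in WT, had 3 of 6 members called higher (background 23.6%) and 1 lower (background 16.2%). Ifi27l2a stood at 1426 CPM in cKO and 266 CPM in WT, Ifitm3 at 2837 CPM in cKO and 940.3 CPM in WT and Bst2 at 138 CPM in cKO and 54.6 CPM in WT. Ifitm1 was the lower one, at 52.3 CPM in cKO and 730.1 CPM in WT. The mix of cells differed as well, with 4 Retnlg cells of 23 in cKO and 98 of 217 in WT. Within Ccr2 cells, 9 in cKO and 51 in WT, Ifi27l2a stood at 1654 CPM in cKO and 544 CPM in WT and Ifitm3 at 3216 CPM in cKO and 1711 CPM in WT. Within Retnlg cells Ifitm1 stood at 184 CPM in cKO and 1986 CPM in WT. Lymphoid cells had 3 of 5 called higher (background 21.5%) and 1 lower (background 6.03%), led by Ifi27l2a at 1073 CPM in cKO and 236 CPM in WT. Of the 20 Ifitm3 UMIs in the 30 cKO lymphoid cells, 16 were in 1 cell, and with 1 more marker required its log2 ratio was -0.91 instead of 2.04.

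In neural cells at P10 the calls were mostly lower. Granule neurons had 5 of 6 members called lower (background 7.62%, and 13.2% of compact genes). Among them was Ifitm2 at 15.3 CPM in cKO and 38.6 CPM in WT. Ifitm1 in granule neurons was at 0.206 CPM in cKO and 2.28 CPM in WT, and Bst2 at 0.794 CPM in cKO and 3.48 CPM in WT, where 30 of 55 WT UMIs were in 1 cell. Microglia marker CPM in these cells was 20.5 in cKO and 43.3 in WT, so it was lower too, and its part was not tested. Over all kept P10 cells Ifitm1 stood at 7.03 CPM in cKO and 58.9 CPM in WT, and Ifitm2 at 59.1 CPM in cKO and 242 CPM in WT. Fibroblasts, where both are high, were 1.74% of cKO and 8.51% of WT cells. The part of RNA from other cells in the values of neural cells was not tested. With 1 more marker required the log2 ratios of Ifitm3 and Ifi27 in granule neurons were 0.0075 and 0.52. Ifitm2 and Ifitm3 were both called lower in oligodendrocyte precursors (2 of 3, background 3.88%), in oligodendrocytes (2 of 4, background 6.52%) and in GABAergic interneurons (2 of 4, background 7.55%). Ifitm2 stood at 10.5 CPM in cKO and 26.7 CPM in WT precursors, at 3.09 CPM in cKO and 16.9 CPM in WT oligodendrocytes and at 37.9 CPM in cKO and 79.5 CPM in WT interneurons. Ifitm3 in interneurons came to a log2 ratio of 0.40 with 1 more marker required. In granule cell progenitors only Ifitm1 was called lower (1 of 6, background 3.64%), at 0.242 CPM in cKO and 2.14 CPM in WT. The one higher call was Bst2 in oligodendrocytes (1 of 4, background 17.7%), at 6.18 CPM in cKO and 2.49 CPM in WT. Astroglia had no member called.

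Over both ages, 56 pairs of gene and class could be read, and 6 of them were called higher at P10 and at P14, against 1.1% of all gene and class pairs read at both ages. These were Ifi27l2a in microglia, border macrophages, lymphoid cells and fibroblasts, and Bst2 in microglia and oligodendrocytes. After thinning to 2000 UMIs the P10 log2 ratios in microglia were under 2-fold, at 0.93 for Bst2 and 0.75 for Ifi27l2a. Bst2 in P10 oligodendrocytes rested on 18 cKO and 11 WT UMIs. One pair, Ifitm2 in lymphoid cells, was lower at both (background 0.299%), 7 were higher at P14 and lower at P10 (background 0.624%), and 1, Ifitm3 in lymphoid cells, was the opposite (background 0.843%). Ifitm2 in lymphoid cells had 5 cKO and 55 WT UMIs at P10, and its P14 log2 ratio was -0.06 without the top 1% of cells. The backgrounds over both ages are for genes of all lengths, whereas all 6 members are compact, and compact genes were not counted apart here. In microglia of both genotypes Bst2, Ifitm3 and Ifi27l2a stood higher at the later age. Bst2 was 208 CPM at P10 and 470.1 CPM at P14 in cKO, and 100.3 CPM at P10 and 201 CPM at P14 in WT. Ifitm3 was 26.0 CPM at P10 and 248 CPM at P14 in cKO microglia, and 15.0 CPM at P10 and 55.3 CPM at P14 in WT microglia. Ifi27l2a was 82.4 CPM at P10 and 467 CPM at P14 in cKO microglia, and 30.3 CPM at P10 and 108 CPM at P14 in WT microglia. The other members differed in direction: Ifitm2 was 29.4 CPM at P10 and 47.5 CPM at P14 in cKO microglia, and 49.4 CPM at P10 and 23.7 CPM at P14 in WT microglia. Ifi27 was 71.5 CPM at P10 and 59.2 CPM at P14 in cKO microglia, and 64.1 CPM at P10 and 85.3 CPM at P14 in WT microglia. The P10 and P14 libraries were also processed with different Cell Ranger versions, per the file headers.

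The other genes of the pathway were taken from lists chosen with earlier results of these data known. Of 23 other interferon-stimulated genes, 19 were at least 2-fold higher in P14 cKO microglia and none lower, against 3.46% of all genes higher there, with a median log2 ratio of 1.46. In the same cells the members had a median of 1.22. The 4 with the most UMIs were Slfn2 at 0.74, Lgals3bp at 1.22, Trim30a at 0.99 and Ifit2 at 2.22 on the log2 scale. The list counted 13 of 21 in border macrophages, 11 of 20 in endothelial cells, 11 of 21 in fibroblasts, 15 of 17 in astroglia, 15 of 16 in oligodendrocytes and 5 of 16 in granule neurons, where 1.55% to 8.73% of all genes were higher. In blood myeloid cells it was 4 of 18 (background 5.99%) and in lymphoid cells 3 of 11 (background 5.21%). At P10 the list counted 17 of 18 in microglia (background 21.4%), 21 of 22 in border macrophages (21.4%), 19 of 19 in endothelial cells (20.2%) and 0 of 10 in granule neurons (26.1%).

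Receptors and signalling genes differed less. In P14 microglia 2 of 12 were at least 2-fold higher (background 3.46%) and none lower, and the 4 with the most UMIs had log2 ratios of -0.13 for the kinase Jak1, 0.13 for Ifnar2, -0.23 for the interferon gamma receptor Ifngr1 and 0.23 for Ifnar1. Other membrane restriction genes had 0 of 5 called in P14 microglia, with log2 ratios of 0.55 for Ly6e, -0.03 for Serinc3, 0.21 for Ncoa7 and -0.08 for March8. Ly6e, which like the IFITM proteins acts on viral entry, stood at 944 CPM in cKO and 646 CPM in WT microglia. Genes that act on IFITM proteins also had 0 of 5 called, among them Nedd4, a ubiquitin ligase of IFITM3, at -0.77, and Zdhhc20, a palmitoyltransferase, at -0.44. Vapa and Vcp were at -0.06 and 0.06. The paralog Ifitm10 had 553 UMIs in cKO and 684 UMIs in WT microglia at P14, a log2 ratio of -0.24, against 2.69 at P10, where it is a long gene with 43128 bases outside exons. Ifitm5, Ifitm6 and Ifitm7 had too few microglial UMIs to be called.

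Interferon transcripts were few. Ifnb1 had 55 UMIs in P14 cKO and 5 UMIs in P14 WT, and none in either P10 library. Of the 55, 53 lay in 1 cell that passed the gates of several classes, and the 5 WT UMIs lay in 2 microglia. Ifng had 4 UMIs in P14 cKO and 55 in P14 WT, where 22 were in 13 lymphoid cells and 30 in 3 cells of no class, and 12 UMIs in P10 cKO and 6 in P10 WT. Ifnk had 13 UMIs in P10 cKO, 1 in P10 WT, 11 in P14 cKO and 10 in P14 WT, spread 1 or 2 to a cell. Ifnz had 1 to 4 UMIs in each library, Ifna2 and Ifnl2 1 UMI in a single library each, and Ifna1, Ifna4, Ifna5, Ifne and Ifnl3 none. A count of 0 allows up to 3 UMIs in a library.

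Genes with the most similar pattern were sought by Pearson's r of log2(CPM + 5) over the 54 class and library pairs, among 16525 genes. These pairs share libraries and depth, so r is a description. Bst2 ran closest to the interleukin 10 receptor subunit Il10rb (0.92), the double-stranded RNA sensor Ifih1 (0.91) and Lgals3bp (0.90). Ifi27l2a ran closest to Gm26740 (0.94), the transcription factor Elf4 (0.93) and Epsti1 (0.93). Ifitm1 ran closest to Crispld2 (0.90), Emilin1 (0.88) and Snai1 (0.88), and Ifitm3 to Myadm (0.90), Klf4 (0.90) and Anxa7 (0.90). Ifitm2 was closest to Ifitm3 (0.85), then Agpat2 (0.84) and Dnase1l1 (0.83), and Ifi27 to Plin3 (0.84), Rest (0.83) and Marc2 (0.82).

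Sequence that members share with other genes limits how their reads could be placed. Of 606 stretches of 50 bases in the Ifitm2 transcripts of GENCODE vM21, 48.5% also occur in another annotated gene, and 3.30% in another member. For Ifitm3 the shares were 10.0% of 629 stretches and 5.56%, and for Ifitm1 5.02% of 1056 stretches and 1.42%. Apart from the members, the genes that share these stretches with the 3 Ifitm genes are not among the genes counted here. How reads of such stretches were placed was not tested. Through the stretches shared between members, levels of the 3 Ifitm genes are less certain than those of the others. Bst2 and Ifi27 shared none, and Ifi27l2a shared 0.483% of its stretches, all with Ifi27l2b, which had 1 UMI in all 4 libraries.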

How the data were processed

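Single-cell RNA libraries of dissociated mouse cerebellum, 1 per group, were analysed from the UMI count matrices deposited by the authors, which hold whole-number counts per gene and barcode. Per the file headers they were written by Cell Ranger 7.0.1 (P10 cKO), 5.0.0 (P10 WT) and 7.1.0 (both P14 libraries), whereas Cell Ranger 3.0.2, Seurat 4.1.3 and mm10 stand in the submitters' processing notes. Whether intronic reads were counted is not given in the sources used here. Depth was 91091692 to 158017834 UMIs per library.

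Barcodes with under 500 genes or over 20% mitochondrial UMIs were left out. Cells were gated by the number of class markers with a UMI, at a minimum placed in the gap of each distribution after it was seen, and cells passing several gates were left out as the treatment of doublets. UMIs were summed per class and library and scaled to CPM. Ratios used CPM after adding 0.5 UMI, with intervals from the exact binomial split of the counts, and were called at 2-fold with at least 20 UMIs over both libraries and 20 cells in each. All intervals cover counting error only. Each group being 1 library, no test was run and no p-value is given, and a difference between libraries cannot be told apart from one between animals or preparations. The members and lists were chosen with earlier results of these data known. The genes named are the members, the 3 genes closest to each in pattern among those with at least 200 UMIs, up to 4 genes with the most UMIs of each companion list, and the interferons. The division by gene length and those of blood myeloid and lymphoid cells were added after seeing the data.

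Shares of cells were taken after thinning to 2000 UMIs, with shallower cells left out and exact binomial intervals. Promoters came from RefSeq and positions from GENCODE vM21. The scripts, run under Python 3.11.15 with NumPy 2.4.6, SciPy 1.17.1, pandas 2.3.3, Scanpy 1.11.5 and matplotlib 3.10.9, were tested on simulated data. The alternatives tried were 8 changes of filter, gate, doublet score, depth, scaling and single-cell weight. Long-read data of the study were not analysed here.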

Additional observations from a re-analysis of the deposited data

Results flagged for a closer look

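For 18 pairs of gene and class the log2 ratio of cKO over WT lay on opposite sides of 0 at P14 and P10, with both 95% counting intervals away from 0. The difference was not tested, since each group is 1 library, and the P10 ratios also moved with gene length. Values are the P14 log2 ratio minus the P10 log2 ratio.

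In blood myeloid cells the difference was 4.82 for Ifitm1, -2.26 for Ifitm3, -1.76 for Bst2 and -3.21 for Ifi27l2a. Ifitm1 was higher in cKO at P14 and lower at P10, and the 3 others went the opposite way. Without the top 1% of cells the P14 log2 ratio of Ifitm1 was 0.0042. Retnlg cells, where Ifitm1 was high, were 4 of 23 in P10 cKO and 98 of 217 in P10 WT. Ifitm3 in lymphoid cells had -3.06, resting on 13 to 40 UMIs in a library. Ifitm2 in microglia had 1.74.

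In the neural classes every flagged difference was positive. Ifitm2 had 1.20 in astroglia, 2.85 in oligodendrocyte precursors, 3.74 in oligodendrocytes and 1.55 in GABAergic interneurons. Ifitm3 had 5.15 in oligodendrocyte precursors, 3.98 in oligodendrocytes, 3.34 in GABAergic interneurons, 1.46 in granule cell progenitors and 1.71 in granule neurons. Ifi27 had 1.52 in oligodendrocyte precursors and 2.41 in GABAergic interneurons, and Bst2 had 3.48 in granule neurons. Microglia marker CPM in granule neurons was 34.2 in P14 cKO and 22.2 in P14 WT, and 20.5 in P10 cKO and 43.3 in P10 WT, and its part in these values was not tested.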

How the results depend on the processing

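The 8 alternatives were tried on the counts of called pairs, 27 higher and 3 lower at P14 and 15 higher and 15 lower at P10. Thinning every cell to 2000 UMIs gave 15 higher and 1 lower at P14, of 43 readable pairs, and 11 higher and 5 lower at P10, and 13 of the 27 P14 calls were kept. It leaves fewer pairs with enough UMIs. Leaving out the 1% of cells with the most UMIs of a gene gave 25 higher and 0 lower at P14 and kept 22 of the 27. Requiring 1 more marker gave 25 higher at P14 and 10 higher at P10, and kept 24 of the 27. It reversed 4 P10 calls, to -0.91 for Ifitm3 in lymphoid cells, 0.40 for Ifitm3 in GABAergic interneurons, 0.0075 for Ifitm3 in granule neurons and 0.52 for Ifi27 in granule neurons, and the cause was not tested. Higher calls at P14 numbered 24 to 31 under the remaining 5 alternatives. The Bst2, Ifitm3 and Ifi27l2a calls in P14 microglia held under all 8. No paired analysis was possible because each group is 1 library and no result comes from a test.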
